A study of Mus musculus with 4 samples.

Results

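The genes described here encode the enzymes that attach ubiquitin and ubiquitin-like proteins to other proteins, and the largest family of enzymes that take ubiquitin off again. They were chosen by symbol from the protein-coding genes of the mouse annotation: symbols that start with Ube2, that are Uba followed by a digit, or that are Usp followed by a digit. The rule found 101 of 21951 protein-coding genes, of which 8 were Uba, 37 Ube2 and 56 Usp genes. The letters also take in genes outside the enzyme classes, such as Usp6nl, which encodes a GTPase-activating protein for Rab GTPases. The measurement was RNA immunoprecipitation and sequencing of IGF2BP2, a protein that binds RNA and reads the m6A mark, in mouse bone-marrow-derived macrophages (BMDMs). The samples were 2 IGF2BP2 immunoprecipitates and 2 inputs; no genotype, strain, age or treatment group was labelled. The peak lists of the 2 immunoprecipitates were used, and the inputs were not analysed here. The labels name an antibody against IGF2BP2 in 1 field and one against the Flag tag in another.

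Ubiquitin reaches its targets through a relay. An activating enzyme (E1) charges ubiquitin with ATP and hands it to a conjugating enzyme (E2), which works with a ligase (E3) to place it on a lysine of the target. Ubiquitin-specific proteases (USPs) cleave it off again, so that the mark on a receptor, a histone or a protein bound for the proteasome can be edited. In macrophages this relay is known for its part in the signalling of inflammatory receptors and interferons, in endosomal sorting and in the supply of peptides for antigen presentation.

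A peak is a stretch of the genome where sequenced tags piled up, and its value is its number of tags. Replicate 1 held 15511 peaks and 189393 tags in all, and replicate 2 held 22570 peaks and 324456 tags. The files hold no input value and no library size, so binding of an RNA and a high amount of that RNA cannot be told apart here. Nothing in the labels says that the replicates came from separate cultures. Of 8 macrophage markers, 5 had a sense peak in both libraries, against 17.0% of all protein-coding genes, while Lyz2 had none. Summed over the list they had 2048 tags in replicate 1 and 3232 in replicate 2, and the part of each marker is not given. No B cell marker of 3 had a peak, and T cell markers had 3 tags in replicate 1 and 0 in replicate 2. Neutrophil markers had 0 tags in replicate 1 and 10 in replicate 2, and fibroblast markers 9 and 0.

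The recurring coding stretches of these genes are shown first, because the comparisons below turn on where they lie. Each is the overlap of a replicate 1 peak with a replicate 2 peak, limited to 1 coding exon, and is printed 5′ to 3′ on the sense strand from the GENCODE transcript (GRCm38). Capitals mark GGAC, the core letters of 1 form of the m6A site. The strongest such stretch of 6 genes is given, with exon 4 of Ube2q1 and exon 16 of Usp4 for their base composition. The recurring stretch of Usp9x was longer than 300 bases and is not printed.
Ube2q1 exon 4, chr3:89777231-89777281, plus strand: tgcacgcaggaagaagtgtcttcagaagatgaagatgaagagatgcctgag
Ube2q1 exon 5, chr3:89779429-89779569, plus strand: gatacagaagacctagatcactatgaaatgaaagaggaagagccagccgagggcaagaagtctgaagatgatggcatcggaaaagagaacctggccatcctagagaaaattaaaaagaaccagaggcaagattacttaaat
Usp8 exon 5, chr2:126729160-126729322, plus strand: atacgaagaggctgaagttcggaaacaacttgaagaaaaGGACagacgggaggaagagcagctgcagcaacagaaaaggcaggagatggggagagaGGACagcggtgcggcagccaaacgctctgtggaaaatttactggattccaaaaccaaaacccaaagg
Usp4 exon 8, chr9:108366761-108366878, plus strand: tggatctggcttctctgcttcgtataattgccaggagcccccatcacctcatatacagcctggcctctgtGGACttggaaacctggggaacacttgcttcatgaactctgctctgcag
Usp4 exon 16, chr9:108381328-108381493, plus strand: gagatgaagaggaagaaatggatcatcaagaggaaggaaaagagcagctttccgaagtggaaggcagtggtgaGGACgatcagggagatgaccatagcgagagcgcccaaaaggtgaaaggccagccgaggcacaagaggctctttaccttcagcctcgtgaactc
Uba1 exon 15, chrX:20675586-20675751, plus strand: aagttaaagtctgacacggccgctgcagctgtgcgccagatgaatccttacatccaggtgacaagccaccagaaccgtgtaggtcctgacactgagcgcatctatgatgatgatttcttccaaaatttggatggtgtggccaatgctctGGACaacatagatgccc
Usp24 exon 47, chr4:106409339-106409425, plus strand: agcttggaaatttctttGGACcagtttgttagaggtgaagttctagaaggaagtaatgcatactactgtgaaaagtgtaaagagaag
Ube2r2 exon 5, chr4:41190729-41190824, plus strand: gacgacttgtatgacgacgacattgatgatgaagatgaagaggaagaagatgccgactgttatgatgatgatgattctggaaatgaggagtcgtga

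Ube2q1 exon 5, Ube2q1 exon 4, Uba1 exon 15, Usp8 exon 5 and Usp4 exon 8 are whole exons, covered from their first to their last base in both libraries. In Ube2q1 exons 4 and 5 and in Uba1 exon 15 the peaks of the 2 libraries had the same start and the same end. Usp8 exon 5 holds GGAC more than once, at 2 places. The stretches of Ube2q1 and Ube2r2 hold none.

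Peaks on the sense strand were found in either library for 61 of the 101 genes, against 6950 of all 21951 protein-coding genes. A sense peak was listed for 42 genes in replicate 1, which is 41.6%, against 22.0% of all protein-coding genes. In replicate 2 it was listed for 50 genes, which is 49.5%, against 26.7% of all protein-coding genes. Both libraries had one for 31 genes, which is 30.7%, against 17.0% of all protein-coding genes. Among genes with a peak in either library the share was no higher than the background: 50.8% of the 61 members had a peak in both, against 53.8% of 6950 protein-coding genes. A further 11 genes had peaks in replicate 1 only and 19 in replicate 2 only, and 40 had none. The member genes were more often listed than protein-coding genes at large, and those listed were not more often repeated.

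Long mRNAs were listed more often, among these genes and in general. Of members with a principal mRNA over 4000 nt, 42.2% (19 of 45) had a peak in both libraries, against 30.3% of all protein-coding genes of that length. Between 2000 and 4000 nt the share was 33.3% (11 of 33), against 18.1%. Up to 2000 nt it was 4.35% (1 of 23), against 6.84%. The median mRNA was 4327 nt for members in both libraries, 3796.5 nt for members in a single library and 2340.5 nt for members in neither. The part that length or expression plays in these counts was not tested.

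**Figure D1:**
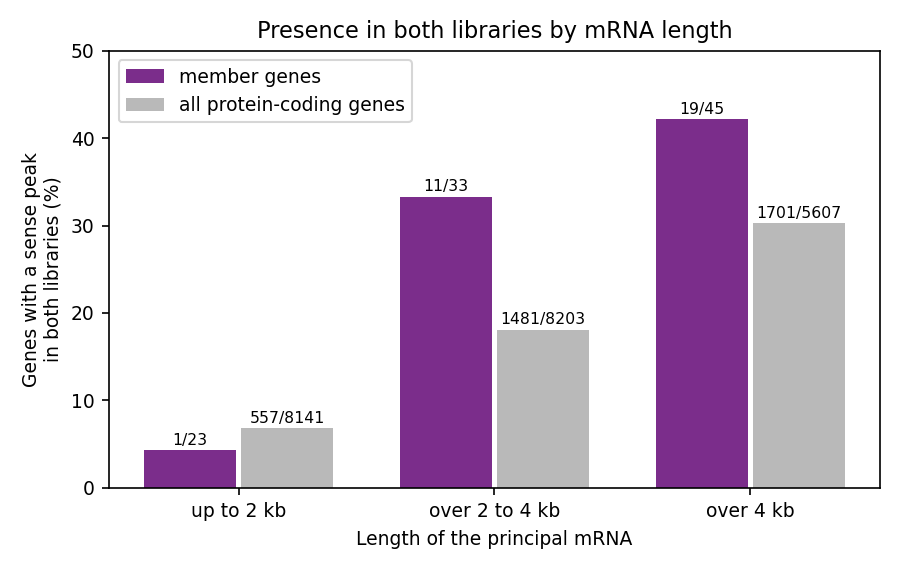
Share of genes with a sense peak in both libraries (vertical axis, %) in 3 classes of principal mRNA length (horizontal axis), with member genes in purple left of all protein-coding genes in grey, and the counts above the bars. The share is 4.35% of members in the shortest class and 42.2% in the longest.

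The peaks were weak. Member peaks held between 4 and 19 tags in replicate 1, with a median of 6, against a median of 8 for sense peaks of other genes. In replicate 2 they held between 4 and 31 tags, with a median of 7, against 9. Peaks of 20 tags or more numbered 0 of 85 in replicate 1, against 1574 of 13451 sense peaks of other genes. In replicate 2 they numbered 4 of 149, against 3439 of 19419. The 4 were in Usp19 with 31 tags, Ube2q1 and Ube2d3 with 27 each, and Usp9x with 21. Together the members held 607 tags in replicate 1, which was 0.342% of all tags in sense peaks, and 1174 tags in replicate 2, which was 0.385%. Over the 31 genes present in both libraries, the summed tags of a gene ran from 4 to 70 in replicate 1, with a median of 10, against a median of 14 for all protein-coding genes in both. In replicate 2 they ran from 4 to 101, with a median of 18, against 24. Replicate 2 had more tags for 21 of the 31 genes, replicate 1 for 7, and 3 were equal. Most protein-coding genes in both libraries also had more in replicate 2: 2731 of 3739, against 771 with more in replicate 1 and 237 equal.

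**Figure D2:**
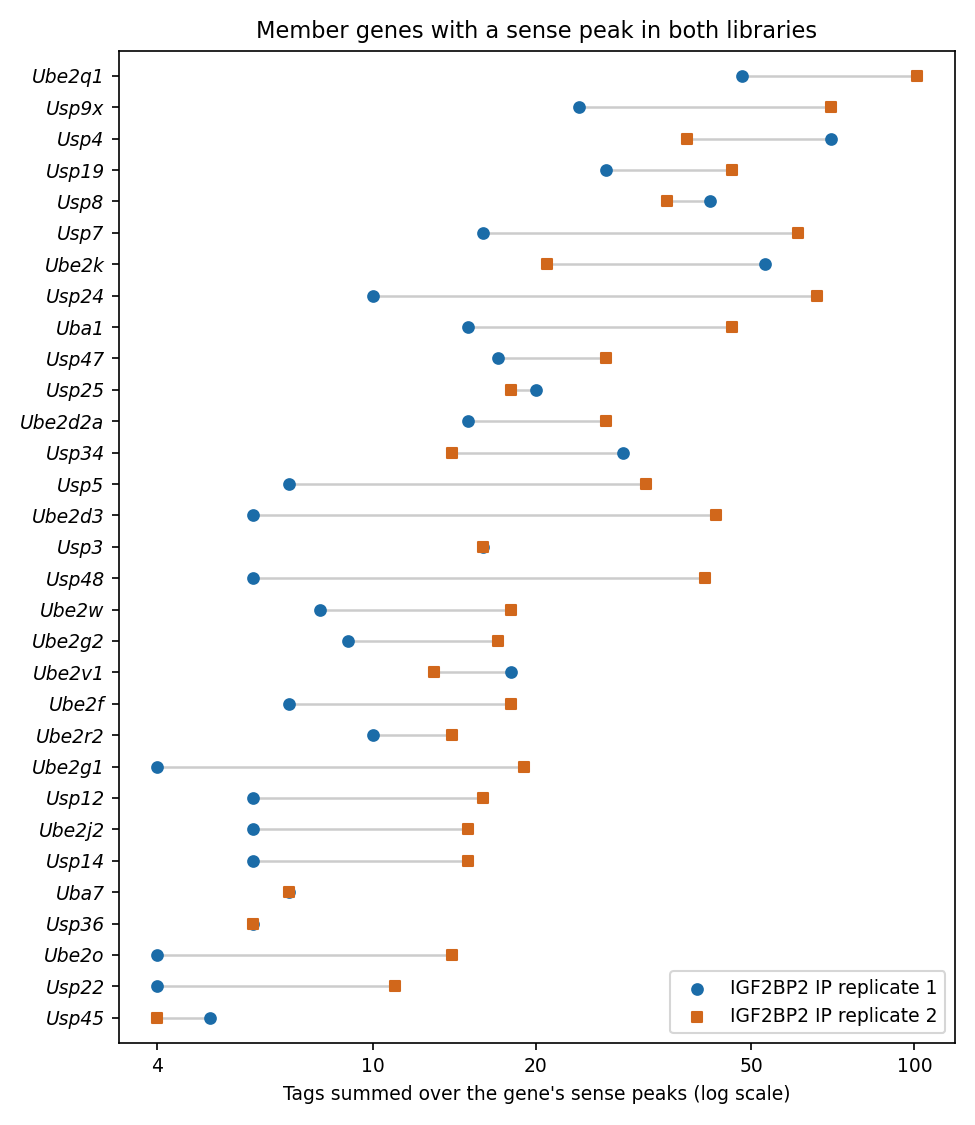
Tags summed over the sense peaks of each member gene found in both libraries (horizontal axis, log scale), with replicate 1 as circles and replicate 2 as squares, and genes from the highest mean rank at the top. Ube2q1 stands at the top with 48 and 101 tags, and the symbols coincide for Usp3, Uba7 and Usp36, whose tags were equal.

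Of the activating enzymes, 2 of 6 E1 genes had a peak in both libraries, against 17.0% of all protein-coding genes, and Uba1 had the most tags among them. Uba1, the main E1 of ubiquitin, had 2 peaks with 15 tags in replicate 1 and 7 peaks with 46 tags in replicate 2. All lay wholly or mainly in coding sequence, and both replicate 1 peaks recurred in replicate 2: exon 15 with 8 tags in replicate 1 and 9 in replicate 2, and exon 26, which holds the stop codon, with 7 and 7. Uba7, which activates the interferon-induced modifier ISG15, had 1 peak of 7 tags in each library, at different places. Uba2, a subunit of the SUMO E1, had 1 peak of 4 tags in replicate 1 and none in replicate 2. Peaks in replicate 2 alone were found for Uba6, which activates ubiquitin and FAT10, with 10 tags in 2 peaks, and for Uba3, the catalytic subunit of the NEDD8 E1, with 4 tags. Uba1y, the Y-linked copy of Uba1, had no peak.

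Ube2q1 ranked highest of the whole group by the mean of its ranks in the 2 libraries, with the most tags in replicate 2 and fewer than Usp4 and Ube2k in replicate 1. It encodes an E2 of the Q class, which carries a long extension before the catalytic fold. It had 4 peaks with 48 tags in replicate 1 and 6 peaks with 101 tags in replicate 2. Exon 5 held 19 tags in replicate 1 and 27 in replicate 2, more than 88.5% and 90.7% of the peaks in those lists had. Exon 4 held 9 and 14 tags, and the exon 6 peaks 10 and 18. The replicate 1 peak covered exon 6 exactly, and that of replicate 2 ran past its end into the intron. The other Ube2q1 peaks were each found in 1 library: exon 1 in replicate 1, and exon 3 and 2 mainly intronic peaks in replicate 2. Its relative Ube2q2 had 4 peaks with 29 tags in replicate 2, all intronic, and none in replicate 1.

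Of 7 E2s of the UBE2D and UBE2E families, which serve many ligases, 2 had peaks in both libraries. Among all protein-coding genes the share was 17.0%. Among them, Ube2d3 had 1 peak of 6 tags in replicate 1 and 3 peaks with 43 tags in replicate 2. The strongest, with 27 tags, lay mainly in an intron and reached into the 5′ UTR, and no Ube2d3 peak recurred. Ube2d2a had 15 tags in replicate 1 and 27 in replicate 2, with 1 recurring stretch that the authors' regions place mainly in an intron. The gene AC141471.2 covers each of its peaks on the same strand, so their gene is uncertain. Ube2e1 with 16 tags and Ube2e2 with 17 tags had peaks in replicate 2 only, and Ube2e3 with 4 tags in replicate 1 only, all of them intronic. Ube2d1 and Ube2d2b had none. Close copies and pseudogenes are known for several of these short genes, and how tags with several matches were placed is not given in the sources used here.

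Ube2k, an E2 that extends ubiquitin chains by itself, was among the 7 genes with more tags in replicate 1. It had 4 peaks with 53 tags in replicate 1 and 2 peaks with 21 tags in replicate 2, mostly intronic, and none recurred. Ube2l3, the partner of HECT and RBR ligases, had 4 peaks with 28 tags in replicate 1 and none in replicate 2. Ube2z, the E2 that receives ubiquitin from UBA6, showed the reverse, with 3 peaks and 40 tags in replicate 2 and none in replicate 1. These were the highest sums among the genes of a single library, where the medians were 4 tags in replicate 1 and 12 in replicate 2.

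Of 4 E2s of the degradation of proteins from the endoplasmic reticulum, 3 had peaks in both libraries, against 17.0% of all protein-coding genes. Ube2g2 had 9 tags in replicate 1 and 17 in replicate 2, with a 3′ UTR stretch that recurred with 5 and 8 tags. Its other replicate 2 peak, of 9 tags, overlaps the gene Gm49325 on the same strand, so the gene of that peak is uncertain. Ube2g1 had 4 and 19 tags and Ube2j2 had 6 and 15 tags, with no recurring place, and Ube2j1 had 8 tags in replicate 1 alone. Ube2r2, a partner of cullin-RING ligases, had 10 and 14 tags, and its peaks recurred across the stop codon with 5 and 6 tags. Ube2w, which can modify the N-terminus of proteins, had 8 and 18 tags with an intronic stretch that recurred at 4 and 5 tags. Ube2o, a large enzyme that unites E2 and E3 functions, had 4 and 14 tags and no recurring place. Ube2h had 10 tags in replicate 1 alone.

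Of the E2s of other modifiers, Ube2f of the NEDD8 pathway had 7 tags in replicate 1 and 18 in replicate 2. Ube2m of the same pathway had 13 tags and Ube2l6 of the ISG15 pathway had 8 tags, both in replicate 2 only. Ube2v1, the inactive partner of UBE2N in making signalling chains, had 18 and 13 tags and a 3′ UTR stretch that recurred with 7 and 6 tags. The readthrough gene Gm20431 covers each of the Ube2v1 peaks on the same strand, so their gene is uncertain. Of 6 E2s of the cell cycle and DNA repair, 2 had a peak in replicate 1, against 22.0% of all protein-coding genes, and 0 in replicate 2, against 26.7%. Ube2n had 5 tags and Ube2s had 4 tags in replicate 1, and Ube2a, Ube2b, Ube2c and Ube2t had none in either.

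Of 7 USPs listed as large, 5 had peaks in both libraries. All 7 have mRNAs over 4000 nt, where the share was 42.2% of members and 30.3% of all protein-coding genes. The list follows no length cut and holds Usp40 of 5049 nt. It leaves out Usp15 (11525 nt), Usp31 (10198 nt) and Usp49 (8252 nt), which were not in both libraries. Usp45 (6003 nt), which was in both, is also left out. Usp9x, a large USP of the X chromosome, ranked highest of the deubiquitinases by the mean of its ranks in the 2 libraries, though Usp4 had more tags in all. Usp9x had 2 peaks with 24 tags in replicate 1 and 8 peaks with 70 tags in replicate 2. Its strongest peak in each library lay at exon 35 of 45, with 16 tags at chrX:13156156-13156554 and 21 tags at chrX:13155851-13156530. The other Usp9x peaks held 6 to 9 tags each and did not recur. Usp24, another large USP, had 1 peak of 10 tags in replicate 1 and 9 peaks with 66 tags in replicate 2, and the replicate 1 peak recurred at exon 47 of 68 with 8 tags. Usp34 had 5 coding peaks with 29 tags in replicate 1 and 2 coding peaks with 14 tags in replicate 2, at 7 different places. Usp47, with 17 and 27 tags, and Usp48, with 6 and 41 tags, had no recurring place either. Usp40 had 7 peaks of 4 tags each in replicate 2 and none in replicate 1.

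Usp4, a deubiquitinase of inflammatory and TGF-beta signalling proteins, had the most tags of any member in replicate 1. It had 8 peaks with 70 tags there and 4 peaks with 38 tags in replicate 2. Exon 3 recurred with 13 tags in replicate 1 and 8 in replicate 2, exon 8 with 9 and 13, and exon 16 with 8 and 10. Usp25 had 20 and 18 tags with no recurring place. Usp10, a partner of G3BP proteins, had 27 tags and Usp15 had 6 tags, both in replicate 2 only. The gene Gm20388 covers each Usp10 peak on the same strand, so their gene is uncertain. Usp11 and Usp18, the protease that removes ISG15, had none.

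Of 6 USPs of membranes and endosomes, Usp8 and Usp19 had peaks in both libraries. All 6 have mRNAs over 4000 nt, and the share was 30.3% of all protein-coding genes of that length. Usp8, which acts on receptors at endosomes, had 5 peaks with 42 tags in replicate 1 and 4 peaks with 35 tags in replicate 2. It recurred at 3 places: exon 5 with 11 and 11 tags, exon 11 with 10 and 8, and exon 12 with its flanking introns with 10 and 7. Usp19, a USP with a form anchored in the endoplasmic reticulum, had 27 and 46 tags. Its recurring peak covered the 5′ UTR and the start of the coding sequence in exon 2, with 10 tags in replicate 1 and 31 in replicate 2, the most of any member peak. Usp32 with 24 tags, Usp33 with 12 and the mitochondrial Usp30 with 10 had peaks in replicate 2 only, and Usp20 had none.

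**Figure D3:**
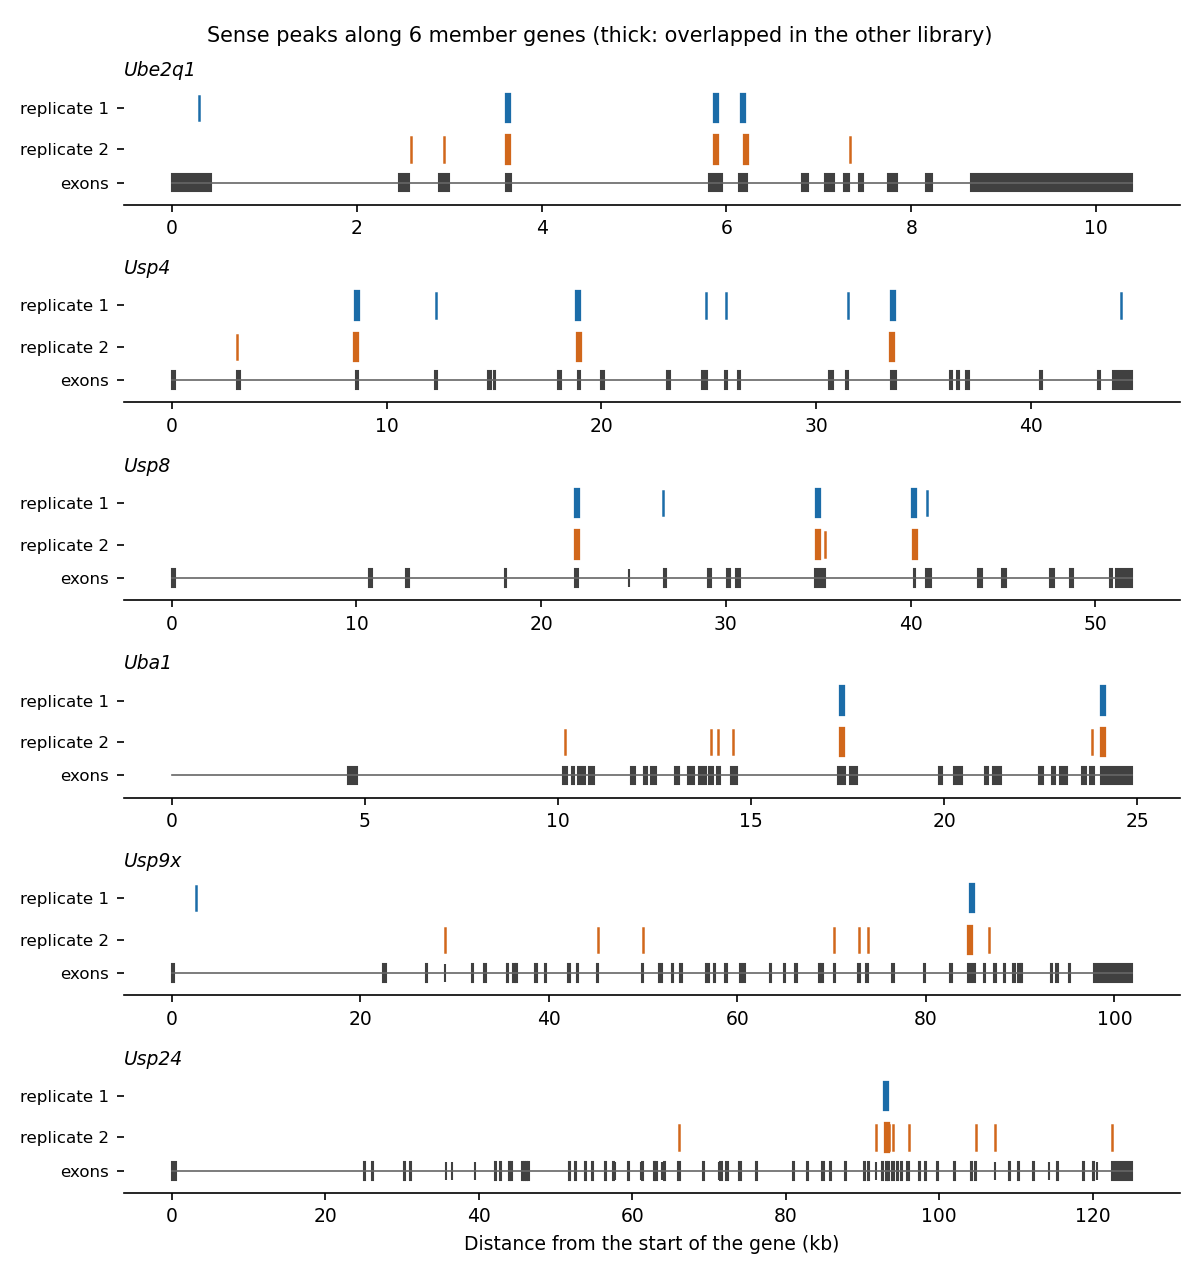
Sense peaks of 6 member genes along the gene (horizontal axis, kb from the start of the gene), with replicate 1 above replicate 2 and the exons of the principal transcript as dark boxes. Marks stand at the middle of a peak and do not show its width. Thick marks overlap a peak of the other library: 3 places each in Ube2q1, Usp4 and Usp8, 2 in Uba1 and 1 each in Usp9x and Usp24.

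Of 9 USPs of chromatin and DNA repair, 3 had peaks in both libraries, against 17.0% of all protein-coding genes. Their mRNAs ran from 2204 nt for Usp51 to 5607 nt for Usp3. Among all protein-coding genes the share was 18.1% between 2000 and 4000 nt and 30.3% over 4000 nt. Usp7, which acts on MDM2 and p53, had 2 peaks with 16 tags in replicate 1 and 8 peaks with 61 tags in replicate 2. The place that recurred, with 10 and 12 tags, was 3′ UTR by the authors' regions and lay beyond the end of the principal transcript. Usp3, which acts on histone H2A, had 16 tags in each library, in mostly intronic peaks of 4 to 6 tags, and 1 intronic place recurred with 4 and 5 tags. Usp22, the USP of the SAGA complex, had 4 and 11 tags with none recurring, Usp1 had 7 tags in replicate 2 and Usp28 had 4 in replicate 1. Usp16, Usp21, Usp27x and Usp51 had none. Of the USPs of free chains and the proteasome, Usp5 had 7 and 32 tags and the proteasome-bound Usp14 had 6 and 15, neither with a recurring place, and Usp13 had none. Usp12 had 6 and 16 tags, the nucleolar Usp36 had 6 and 6, and Usp45 had 5 and 4, at different places in the libraries. The Rab regulator Usp6nl had 8 tags in 2 intronic peaks of replicate 2. Usp37 had 14 tags in replicate 2, while Usp31 with 11 and Usp38 and Usp54 with 4 each were found in replicate 1.

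The members without a sense peak included Usp9y and Uba1y, which lie on the Y chromosome. Others were Usp17la, Usp17lb, Usp17lc, Usp17ld, Usp17le, Usp26, Usp29, Ube2u, Ube2dnl1 and Ube2dnl2, beside those named above and Ube2cbp, Ube2ql1, Ube2v2, Usp2, Usp35, Usp39, Usp42, Usp43, Usp44, Usp46, Usp49, Usp50 and Usp53. No peak in a list says only that none was listed, since each list holds only peaks of 3 tags or more.

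Recurrence was limited to few places. Counting peaks of the libraries that share 1 bp or more on a strand, 21 pairs of peaks in 14 genes recurred, and 14 of the pairs lay in coding sequence of the principal transcript. Of the members found in both libraries, 45.2% had a recurring place, against 53.3% of the 3739 protein-coding genes in both. Of the member peaks of replicate 1, 24.7% (95% exact interval 16.0 to 35.3) were overlapped in replicate 2, against 37.0% of the sense peaks of other genes. Of those of replicate 2, 14.1% (8.94 to 20.7) were overlapped in replicate 1, against 25.3%. Peaks of more tags recurred more often, and member peaks had fewer tags, so the shares were also taken within 3 classes of tags. With 10 tags or more, 55.6% of 18 member peaks in replicate 1 recurred, against 60.8% for other genes, and 32.3% of 31 in replicate 2, against 40.5%. With 3 to 5 tags the shares were 13.8% of 29 against 10.9% in replicate 1, and 5.26% of 38 against 5.12% in replicate 2. With 6 to 9 tags they were 18.4% of 38 against 31.1% and 11.2% of 80 against 13.7%. Exact intervals here reflect counting error alone, since PCR copies were not told from separate molecules, and peaks of 1 gene share their RNA.

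Many peak borders lay at exon borders. Of the member peaks, 36.5% in replicate 1 and 43.0% in replicate 2 began or ended exactly at the border of an annotated exon, against 42.5% and 41.8% of other sense peaks. Whole exons made up 11.8% and 19.5%, against 16.1% and 16.0%. Peaks that ran from exon into intron by the authors' regions made up 15.3% and 24.2% of member peaks, against 19.5% and 22.3%. Of the 14 recurring coding stretches, 8 covered a whole exon.

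The E2 and USP genes had their peaks in different parts of the RNA. Coding sequence was the main region of 18.2% (exact interval 6.98 to 35.5) of 33 Ube2 peaks in replicate 1 and 25.5% (13.9 to 40.3) of 47 in replicate 2. For Usp genes it was 62.5% (47.4 to 76.0) of 48 peaks and 59.6% (48.6 to 69.8) of 89. Introns held 54.5% and 48.9% of Ube2 peaks, and 22.9% and 31.5% of Usp peaks. The 3′ UTR held 21.2% and 23.4% of Ube2 peaks, and 12.5% and 3.37% of Usp peaks. Without Ube2q1, coding peaks were 2 of 29 Ube2 peaks in replicate 1, which is 6.90%, and 8 of 41 in replicate 2, which is 19.5%. No Usp gene was left out in the same way, though some also had several coding peaks. The intervals count peaks of the same gene as separate. Coding sequence also makes up less of an E2 mRNA, with a median of 27.7% of its length (552 nt) against 66.4% (2593.5 nt) for Usp genes. Its part in the contrast was not tested. Over all members the regions were near those of other genes, with 45.9% and 49.7% coding, against 46.7% and 44.2%, and 35.3% and 35.6% intronic, against 37.8% and 40.8%.

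**Figure D4:**
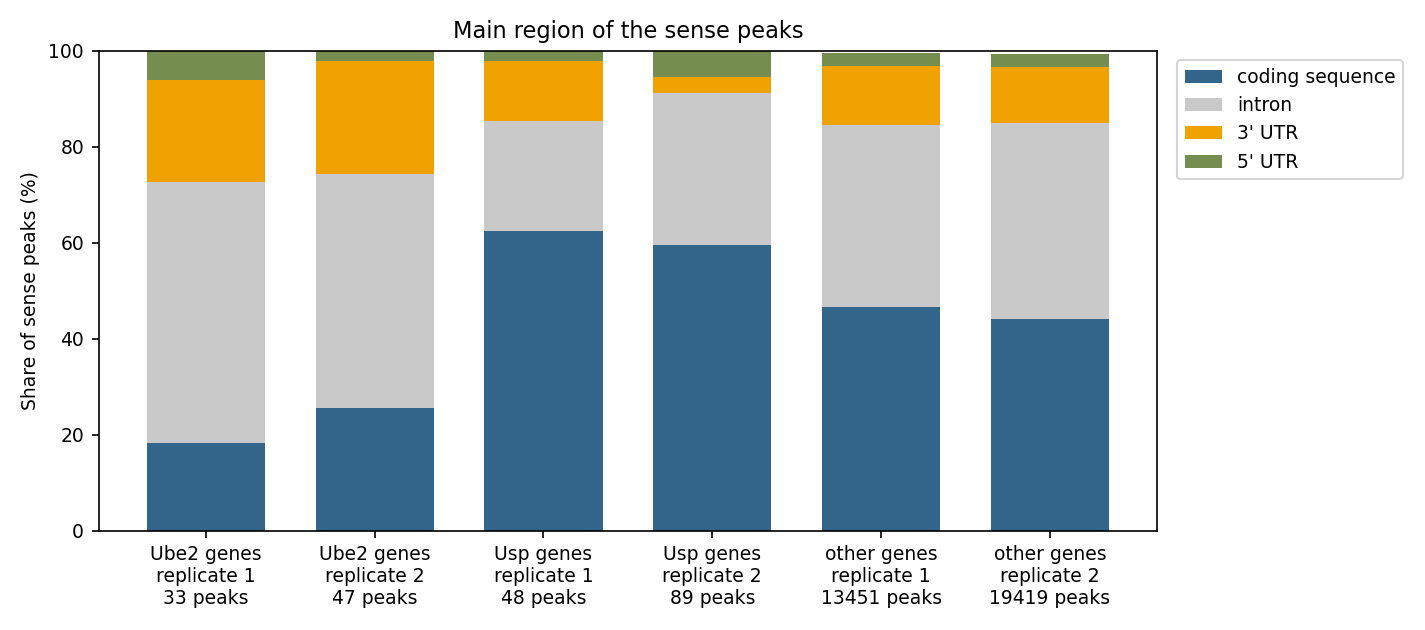
Share of sense peaks (vertical axis, %) by the region that covers most of the peak, for Ube2 genes, Usp genes and all genes outside the 101 members, with 1 bar for each replicate. Peaks of other genes in no such region are not drawn. Coding sequence fills 18.2% and 25.5% of the Ube2 bars and 62.5% and 59.6% of the Usp bars.

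The core letters of the m6A site were no more frequent in member peaks than in others of like length. GGAC was sought on the sense strand in peaks within 1 exon of the principal transcript. It was present in 46.7% (exact interval 31.7 to 62.1) of 45 member peaks in replicate 1, against 52.5% for peaks of other genes within 10% of the same length. In replicate 2 it was present in 35.3% (24.1 to 47.8) of 68 member peaks, against 47.7%. Per kb it occurred 4.00 times in member peaks and 4.85 times in those of other genes in replicate 1, and 3.68 and 4.72 times in replicate 2. A match of these letters is not a methylated site, and their absence says nothing of the protein's binding.

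The 14 recurring coding stretches, 8 of them printed above, were rich in the purines A and G, a feature examined after their sequences were seen. In 13 of 14 stretches the share of A and G was higher than in the whole coding sequence of the same mRNA. The median was 62.6% in the stretches and 53.2% in the coding sequences. Usp8 exon 5 had 70.6%, against 55.4% in its coding sequence, Ube2q1 exon 5 had 68.8% against 55.1%, and Usp4 exon 16 had 66.9% against 52.6%. Usp4 exon 8 went the other way, with 42.4% against 52.6%. The letters GAAGA, whose matches cannot overlap a match of GGAC, were present in 8 of the 14 stretches. They occurred at 9.42 per kb, against 4.46 per kb in the coding sequences. In these medians and rates, also for other genes, a coding sequence counted once for each of its stretches and included them. Ube2q1 exon 4 and the coding end of Ube2r2 held GAAGA 4 times each. Other genes had the feature to a lesser degree: 68.7% of 3181 recurring coding stretches were above their own coding sequence, with a median of 56.2% against 53.1%. GAAGA occurred there at 5.84 per kb, against 3.94, and was present in 45.6% of the stretches. The stretches come from 7 member genes, share libraries, and were given no test. Input libraries, where read coverage could be compared, were not analysed here.

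**Figure D5:**
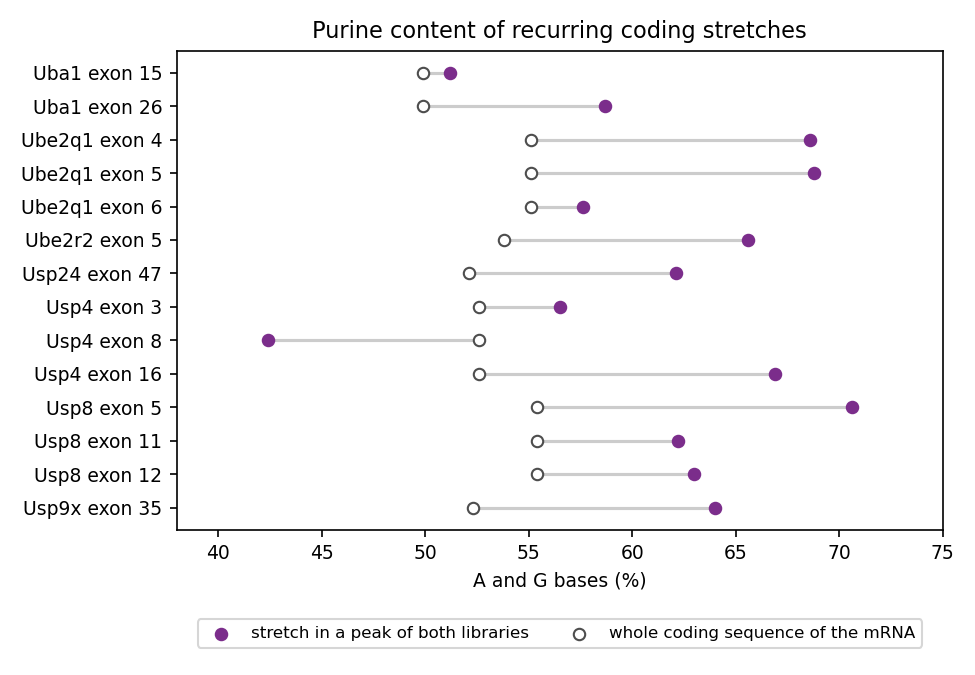
Share of A and G bases (horizontal axis, %) in each of the 14 recurring coding stretches (filled) and in the whole coding sequence of the same mRNA (open). In 13 of 14 the stretch lies to the right of its coding sequence, and Usp4 exon 8 lies to the left with 42.4% against 52.6%.

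Other genes of the pathway were counted from lists chosen by function. HECT ligases, the E3s that carry ubiquitin themselves, had a peak in both libraries for 14 of 21 genes (of 22 names listed, 1 was mistyped, matched no gene and was not counted), led by Huwe1 with 124 and 296 tags and Herc2 with 133 and 275 tags. Huwe1 alone had 10 recurring pairs. Genes of the 26S proteasome had peaks in both for 19 of 37, led by Psmd2 with 54 and 135 tags. The cullin-RING core had 7 of 15, such as Ddb1 with 33 and 60 tags. Deubiquitinases outside the USP family had 7 of 30, among them Otud4 with 68 and 61 tags and Otulin, which removes linear chains, with 38 and 58 tags. Tnfaip3, the A20 protein that limits inflammatory signalling, had 25 tags in replicate 1 and none in replicate 2. E2 genes outside the symbol rule had 3 of 6, with Birc6 at 78 and 151 tags, and E1 partners and E1-like genes had 2 of 4, with the autophagy gene Atg7 at 66 and 82 tags. Across all protein-coding genes the share in both libraries was 17.0%, as above. It was 6.84% for those with an mRNA up to 2000 nt, 18.1% between 2000 and 4000 nt, and 30.3% over 4000 nt. The lists differ in mRNA length, with 14579 nt for Huwe1 and 2961 nt for Psmd2, and most of the proteasome mRNAs are shorter than 2000 nt. These shares are descriptions without a test, and the part of length in them was not tested.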

How the data were processed

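RNA bound to IGF2BP2 was measured in 2 immunoprecipitation libraries. The submitters' processing notes name TopHat2, bcl2fastq and the build GRCm38. How peaks were called is not given in the sources used here. The authors deposited 1 peak list for each library, whose headers give a whole tag count per peak (lowest value 3), a maximum height, which is a coverage signal, a position, region shares and a gene identifier. Values were not normalized, and depth is unknown. The deposited starts count from 0: of 10375 wholly coding peaks, 68.6% started 1 base before an annotated exon and 0.318% at its first base, while 69.6% ended at its last base. Starts were therefore moved by 1 base. Identifiers without their version matched GENCODE mouse release 21 for 99.7% and 99.8% of peaks with one. Antisense and intergenic peaks were left out, and each peak took the region that covers most of it. The principal transcript was that ranked first by APPRIS among coding transcripts, then by coding length. Overlap needed 1 bp on the same strand; the search gave the same pairs as bedtools 2.31.1 on simulated peaks. Python 3.11.15, pandas 2.3.3 and scipy 1.17.1 (exact binomial 95% intervals) were used. No test was run, since 1 group has values. The members and lists were chosen with earlier results of these data known. Named were the 25 genes highest by mean rank of tags among those in both libraries, the E1 genes, the listed roles and the genes with no peak, except a few that are not reported here; other genes were chosen after their values were seen. Alternatives were a minimum of 6 tags, the stronger 50% of peaks, exonic peaks, overlap of 50%, strand ignored, summits, maximum height, number of peaks, regions at peak midpoints or by tags, and single libraries.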

Additional observations from a re-analysis of the deposited data

Results flagged for a closer look

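Peaks on the strand opposite to a member gene lie outside the comparisons above, and those with more than 3 tags, the number that a count of 0 still allows, are given here. Usp35 had 1 in replicate 2 with 6 tags, at chr7:97312058-97312317 on the plus strand. Ube2v2, which had no sense peak, had 1 in replicate 2 with 4 tags, at chr16:15556176-15556417. Usp50, also without a sense peak, had 2 in replicate 2 with 4 tags each, at chr2:126762980-126763266 and chr2:126766464-126766716 on the plus strand. The Usp50 places lie 3.68 and 7.17 kb past the annotated end of Usp8 on the strand of Usp8, and no annotated gene covers them there. For Usp35, Ube2v2 and Usp50, replicate 1 listed no antisense peak.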

How the results depend on the processing

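Over 36 comparisons of 12 results with an alternative, 29 stayed near the value reported and 7 moved. The 31 genes with a peak in both libraries became 14 when each list was cut to its stronger 50%, and 20 when only mainly exonic peaks counted, and a single library gave 42 to 50 genes: 50 without replicate 1 and 42 without replicate 2. For the first pair the construction leaves fewer peaks; with a minimum of 6 tags the count was 23. The 14 genes with a recurring place ranged from 10 to 15 over the overlap rules, the minimum of tags and the start read as counted from 1, the last an alternative chosen after seeing the data. The members' share of sense tags, 0.342% and 0.385%, was 0.440% and 0.501% by maximum height and 0.628% and 0.761% by number of peaks, since their peaks hold fewer tags than those of other genes. The coding and intronic shares over all members kept within their intervals under each alternative run. The separate shares of Ube2 and Usp genes, and the UTR shares, were not rerun. With starts read as counted from 1, only 28 and 27 member peaks lay within 1 exon, and GGAC was present in 46.4% and 40.7% of them. No paired analysis was possible because only 1 group has values. Library depth is unknown. Peaks of 3 to 5 tags made up 34.1% of member peaks in replicate 1, against 26.3% for other genes, and 25.5% in replicate 2, against 17.7%.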
